A study of Mus musculus with 2 samples.

Results

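The promoters of the nuclear genes of the mitochondrial respiratory chain were described in DNase-seq libraries of spleen. The assay maps chromatin that the enzyme DNase I can reach, by sequencing the ends it leaves. Members were the protein-coding genes of the mm10 annotation whose symbol starts with Nduf, Uqcr, Cox4 to Cox8 or Atp5, and Sdha, Sdhb, Sdhc and Sdhd. This gave 93 genes of 21911 protein-coding gene symbols. They comprised 7 core subunits, 29 accessory subunits and 8 assembly factors of complex I, 4 genes of complex II, 8 of complex III, 20 of complex IV with Ndufa4 and its paralog, and 17 of complex V. Both libraries came from the spleen of male B6CASTF1/J mice aged 10 days, the first-generation cross of C57BL/6 and CAST/EiJ. The mice carried no treatment or engineered allele in the labels. The libraries are biological replicates 1 and 2 of a single group. The labels number the animals separately but give them a common donor identifier, so the spread between libraries may be partly technical. There was no contrast between conditions, and all values below are descriptions.

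The respiratory chain sits in the inner mitochondrial membrane. Complex I (NADH dehydrogenase) and complex II (succinate dehydrogenase) pass electrons to ubiquinone, complex III passes them on to cytochrome c, and complex IV (cytochrome c oxidase) passes them to oxygen. Complex V, the ATP synthase, uses the resulting proton gradient to make ATP. Most subunits are encoded in the nucleus, and the transcription factors NRF1, GABP (of the ETS family), YY1 and ESRRA are known to act at many of their promoters. Several complex IV subunits have paralogs made mainly in muscle, testis, lung or hypoxic cells.

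The promoter window reached 500 bp to each side of every annotated transcription start site (TSS), and each gene was represented by its strongest overlapping peak in each library. Signal is the deposited density of that peak, whose scale differed between the libraries. It was therefore also given as a percentile among all protein-coding genes with a promoter peak in the same library. Replicate 1 held 130476 peaks and 404781 footprints, and replicate 2 held 95847 peaks and 276537 footprints. Footprints are short stretches that the deposited calls mark within accessible DNA. The read depth is unknown here, as the files used give none. Red cell markers had a promoter peak in both libraries for 8 of 8 genes and B cell markers for 7 of 7, and none of 7 liver genes did. Of 8 muscle and heart genes, Ckm and Myl2 did, at the 37.8th and 35.6th percentiles of replicate 1. Spleen is a mixture, and in bulk tissue fewer cells with an open promoter and less opening per cell cannot be told apart.

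The sequences below are the stretches that carry the footprint result: consensus letters of NRF1, YY1 or ETS factors lying in a footprint of both libraries, in the strongest promoter peak of genes named below. The Atp5l stretch lies in the strongest peak of replicate 2 alone, and in replicate 1 it falls in a second promoter peak with a signal of 3.91. They were read from the mm10 reference (the CAST/EiJ allele was not used here) and run 5′ to 3′ in the gene's direction. Capitals mark the consensus letters in either orientation: GCGCATGC for NRF1, AAGATGGC for YY1 and CCGGAAGT for ETS. In Cox6a1, Ndufaf5 and Atp5g2 the capitals span NRF1 letters on both strands, which overlap.
Ndufa6, chr15:82354358-82354387, minus strand: tttccgcggtagaGCATGCGCattgcagag
Ndufaf4, chr4:24898074-24898103, plus strand: cccctggtgtGCGCATGCtccgtgcgtaca
Ndufaf5, chr2:140170651-140170680, plus strand: tagtcccgttgGCGCATGCGCctaatagaa
Sdhb, chr4:140961205-140961234, plus strand: gaagcccagtggGCATGCGCcctacgggcc
Cox6a1, chr5:115349101-115349130, minus strand: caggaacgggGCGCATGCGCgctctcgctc
Atp5g2, chr15:102671071-102671100, minus strand: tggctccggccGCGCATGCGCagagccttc
Atp5l, chr9:44920964-44920993, minus strand: aaaccaataacGCATGCGCatttcccccac
Sdhc, chr1:171150559-171150586, minus strand: aactcAAGATGGCtgcgttcttgctgag
Cox8a, chr19:7217608-7217627, minus strand: gaaatACTTCCGGctcgggc
The first 7 hold NRF1 letters, Sdhc holds YY1 letters, and Cox8a holds ETS letters. The NRF1 footprints of Sdhb were 20 bp wide in each library, and those of Cox6a1 were 22 and 21 bp wide. The YY1 letters of Sdhc lay 10 bp downstream of the nearest TSS.

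Nearly all respiratory chain promoters were accessible in both libraries. A promoter peak was found for 88 of 93 members in replicate 1 (94.6%, exact 95% interval 87.9 to 98.2) and for 87 in replicate 2. The same 87 genes had one in both (93.5%, 86.5 to 97.6). Over all protein-coding genes the shares were 67.7% in replicate 1, 61.3% in replicate 2 and 60.7% in both. Intervals here and below are exact Clopper-Pearson intervals and cover counting error only. All 85 members outside the tissue-restricted isoforms had a peak in both libraries. Those without one in 1 or both libraries were Cox4i2, Cox6a2, Cox7b2, Cox8b, Cox8c and Ndufa4l2, all of them paralogs with restricted expression.

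Open member promoters were also stronger than the typical open promoter. The median signal of the members with a peak was 15.6 in replicate 1, against 6.92 over all genes with a promoter peak. In replicate 2 it was 6.21, against 3.51. The median percentiles were 75.1 and 72.9. Members reached the 75th percentile in 44 of 88 cases in replicate 1, where 25.0% of all genes do, and in 40 of 87 cases in replicate 2, where 25.0% of all genes do. At or above the 90th percentile lay 13 members in replicate 1 and 15 in replicate 2. Over all genes these were 1483 of 14826 and 1344 of 13437. The order of the members was similar in both libraries, with a Spearman coefficient of 0.873 over the 87 members, beside 0.973 over all 13307 genes with a peak in both. The points are genes of the same pair of libraries and are not replicates.

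**Figure D1:**
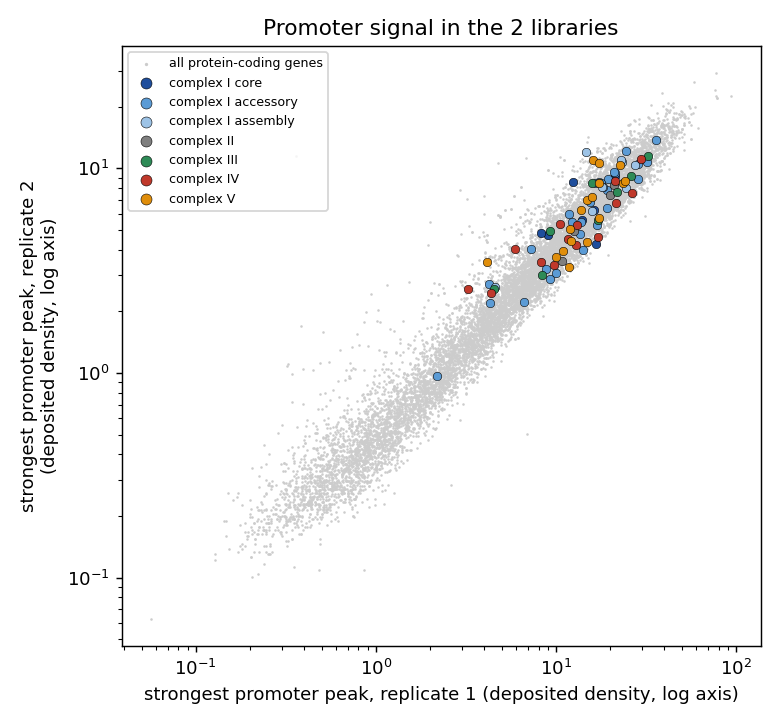
Signal of the strongest promoter peak of each gene in replicate 1 (x axis) and replicate 2 (y axis), as deposited density on log axes, for respiratory chain genes coloured by complex and all protein-coding genes in grey. Most members lie in the upper part of the grey cloud, around their medians of 15.6 and 6.21, and Ndufa13 is the lowest member found in both at 2.18 and 0.971.

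By complex, the medians lay above the median gene in each class. Complex I assembly factors had the highest median percentile, 84.9 in replicate 1 and 88.5 in replicate 2. Complex IV had the lowest, 64.9 and 59.4 over its open members. Its 12 members that are not tissue-restricted had 68.2 and 62.8. The other classes lay close together. Their medians in replicates 1 and 2 were 70.8 and 68.1 for the complex I core, 77.9 and 74.3 for complex I accessory subunits, 76.0 and 71.6 for complex II, 77.0 and 75 for complex III and 73.1 and 73.3 for complex V. The range of single genes within a class was wider than the distance between these medians, and no difference between complexes was tested.

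**Figure D2:**
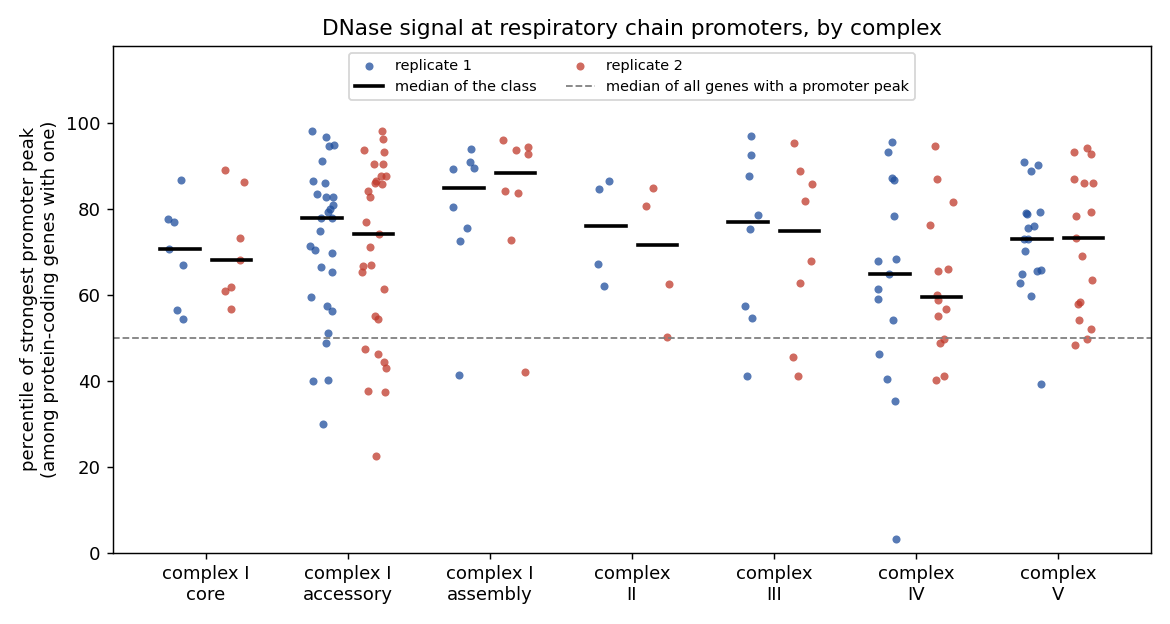
Percentile of the strongest promoter peak among protein-coding genes with one (y axis), for each open respiratory chain gene by complex, with replicate 1 in blue, replicate 2 in red and the class median as a black bar. Class medians run from 59.4 to 88.5 and all lie above the dashed line at 50, while single genes of most classes fall on both sides of it.

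In complex I, the core subunits that carry the flavin and most iron-sulfur clusters were open in both libraries at or above the 54.5th percentile. Ndufs7, an iron-sulfur subunit, had 12.5 in replicate 1 and 8.55 in replicate 2. Ndufs3 had 8.97 and 4.74, and Ndufs8, another iron-sulfur subunit, had 8.29 and 4.84. Ndufs3 and Ndufs8 were the lowest core genes by mean percentile, with no core gene below the median gene in either library. The strongest Ndufs8 peak of replicate 1 was centred at -176 bp from the nearest TSS, negative values lying upstream.

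Among the accessory subunits, which surround the core, Ndufc1 had the strongest promoter of all members in both libraries. Its signal was 35.8 in replicate 1 and 13.8 in replicate 2, the 98.1st percentile in each. Ndufv3, a subunit near the flavin site, had 31.8 and 10.7. At the other end Ndufa13, also known as GRIM-19, had 2.18 and 0.971, at the 29.9th and 22.6th percentiles. Its peaks were 800 and 500 bp wide, beside member medians of 180 and 200 bp, and held 1 and 2 footprints. Ndufb11 was second lowest by mean percentile with 4.31 and 2.20. The reference holds 2 further sequences at least 95% identical over at least 80% of the Ndufb11 peak, the only member peak with such a copy on the main chromosomes, and the reads' mapping there was not examined. Of the 29 accessory genes, 25 in replicate 1 and 22 in replicate 2 lay at or above the median gene.

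The assembly factors, which build complex I and are not part of it, were led, by mean percentile, by Ndufaf2 with 27.6 and 10.4 and Ndufaf4 with 23.1 and 11.0. Ndufaf1 was far below the others of this class at 4.56 and 2.65, the 41.3rd and 42nd percentiles. By mean percentile the next lowest was Ndufaf5, an enzyme that modifies a core subunit, with 15.9 and 6.21. Thus 7 of 8 assembly factors lay above the median gene in each library. Ndufaf8 had 14.7 in replicate 1 and 11.97 in replicate 2, and so moved from the 72.6th to the 96.1st percentile.

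Complex II oxidises succinate and has 4 subunits, all open. Sdhc and Sdhd anchor it in the membrane, Sdha holds the flavin and Sdhb the iron-sulfur clusters. Sdhc had 21.1 in replicate 1 and 8.26 in replicate 2, and Sdha had 20.1 and 7.44. Sdhd had 12.6 and 4.93, and Sdhb had 10.8 and 3.53. Sdhc and Sdha thus lay above Sdhd and Sdhb in both libraries, with 1 membrane anchor on each side.

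In complex III, Uqcrfs1, the Rieske iron-sulfur protein, had the strongest promoter with 32.5 and 11.5. Uqcrq, a small subunit, followed with 25.9 and 9.15. These Uqcrq peaks were centred at -310 and -140 bp from the nearest TSS. A TSS of Gdf9, on the opposite strand, lay within 500 bp of that of replicate 1. The core protein gene Uqcrc2 had 8.41 and 3.002, and Uqcrb had 4.52 and 2.57, the lowest of the class in both libraries. Replicate 1 percentiles in this complex ran from 41.1 for Uqcrb to 97.0 for Uqcrfs1.

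Complex IV contained both strong and closed promoters. Cox6a1, a regulatory subunit gene expressed in most tissues, had 29.7 in replicate 1 and 11.1 in replicate 2, the highest of the class. Cox5b had 26.5 and 7.61. The lowest of the open genes without restricted expression were Cox7b, with 3.23 and 2.57, and Cox7c, with 4.38 and 2.46. Cox7a2l, which helps join complexes III and IV, had 11.7 and 4.50.

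The broad isoforms of complex IV subunits were open in both libraries, whereas 6 of the 8 tissue-restricted isoforms lacked a peak in 1 or both. In 7 of the 8 pairs the restricted gene was weaker than its broad counterpart in both libraries, counting no peak as lowest. Cox4i1 had 21.5 and 6.76, and Cox4i2, the form known from lung and hypoxia, had no peak in either library. Cox6a2 and Cox8b, the heart and skeletal muscle forms, had none, beside the Cox6a1 values above and 13.0 and 5.31 for Cox8a. Cox7b2 had none beside Cox7b, and Ndufa4l2, known as a hypoxia-induced gene, had none beside 10.5 and 5.36 for Ndufa4. Cox8c, a testis form, had a peak in replicate 1 alone with a signal of 0.255, at the 3.07th percentile and with no footprint.

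At the closed promoters the deposited false discovery rates of the cut rate gave little signal below the level of a peak. Within the window of Cox4i2, 39 bases of replicate 1 were listed below 0.05, with a lowest value of 0.0275, and none of replicate 2. For Cox8c it was 162 bases of replicate 1, with a lowest value of 0.0150, and none of replicate 2. No base was listed for Cox6a2, Cox7b2, Cox8b or Ndufa4l2 in either library. The nearest peak to a TSS was 1914 bp away for Cox6a2 and 2895 bp away for Cox8b in both libraries. For Ndufa4l2 it was 1219 bp away in replicate 1 and 887 bp in replicate 2.

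Cox7a1 and Cox6b2 were the restricted isoforms that were open in both libraries. Cox7a1, the muscle form, had 5.90 in replicate 1 and 4.05 in replicate 2, at the 46.3rd and 55.0th percentiles, with 4 footprints in each. Its broad counterpart Cox7a2 had 17.0 and 4.63. Its peaks were centred at 6 and -14 bp from the nearest TSS. Cox6b2, the testis form, had 8.22 and 3.47, and Cox6b1 had 9.76 and 3.37, so their order differed between the libraries. Cox6b2 had 3 promoter peaks in each library over 7 annotated TSSs. The strongest in replicate 1 was chr7:4753041-4753240, at 8.22 against 3.45 in replicate 2. The strongest in replicate 2 was chr7:4752501-4752700, at 3.47 against 5.81 in replicate 1. It was the 1 member of 87 whose strongest peaks did not overlap between libraries.

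**Figure D3:**
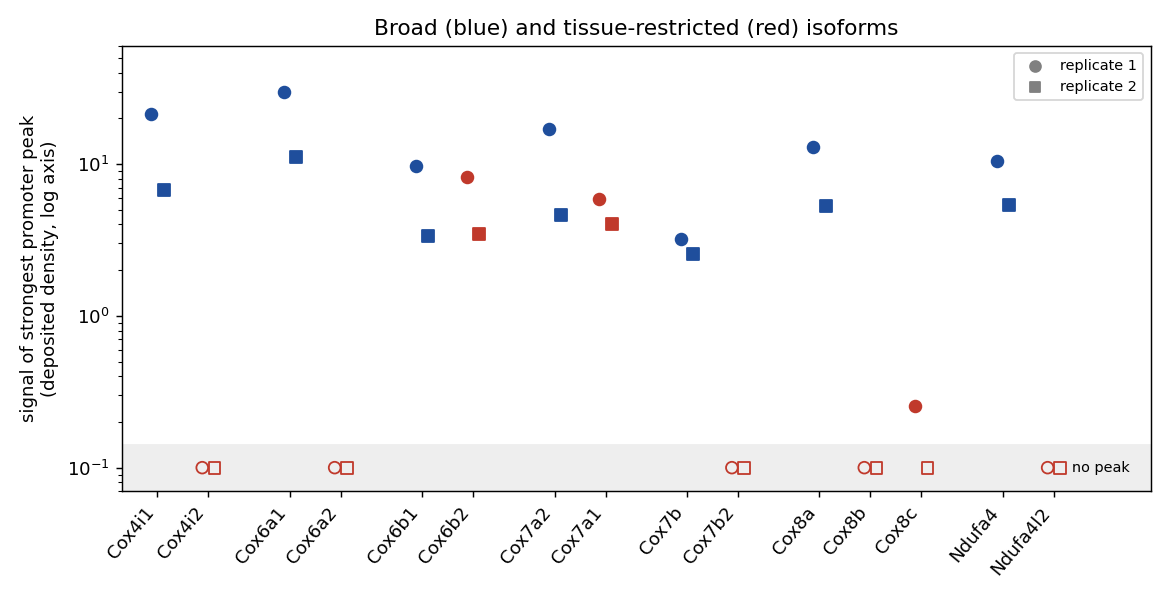
Signal of the strongest promoter peak (y axis, deposited density, log axis) of broad isoforms in blue and tissue-restricted isoforms in red, with replicate 1 as circles and replicate 2 as squares; open symbols in the grey band stand for no peak. Each broad isoform has a peak in both libraries, Cox7a1 and Cox6b2 are the restricted isoforms with peaks in both, and Cox8c has 1 weak peak of 0.255.

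The sequences of these promoters differed in their content of CG dinucleotides, shown here as capitals in the 250 bases before the RefSeq start of an open, a less open and a closed promoter set beside each other (RefSeq, mm10, 5′ to 3′ in the gene's direction). Of the 4 families with a window for both forms, Cox7a and Cox8 are shown, chosen after their values were seen. The Cox6b and Cox7b windows are given as values below, and Cox7b ran the other way.
Cox7a2, chr9:79759854-79760103, minus strand: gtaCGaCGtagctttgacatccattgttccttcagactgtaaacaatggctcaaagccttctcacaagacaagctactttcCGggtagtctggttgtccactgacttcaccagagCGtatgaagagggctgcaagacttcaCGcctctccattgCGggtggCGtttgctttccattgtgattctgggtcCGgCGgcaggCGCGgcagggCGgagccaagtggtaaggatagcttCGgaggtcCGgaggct
Cox7a1, chr7:30183921-30184170, plus strand: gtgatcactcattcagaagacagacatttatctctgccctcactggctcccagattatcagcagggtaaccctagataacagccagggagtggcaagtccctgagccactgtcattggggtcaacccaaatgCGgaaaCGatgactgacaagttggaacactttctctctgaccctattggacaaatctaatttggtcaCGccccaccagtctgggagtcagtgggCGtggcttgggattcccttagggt
Cox8a, chr19:7217617-7217866, minus strand: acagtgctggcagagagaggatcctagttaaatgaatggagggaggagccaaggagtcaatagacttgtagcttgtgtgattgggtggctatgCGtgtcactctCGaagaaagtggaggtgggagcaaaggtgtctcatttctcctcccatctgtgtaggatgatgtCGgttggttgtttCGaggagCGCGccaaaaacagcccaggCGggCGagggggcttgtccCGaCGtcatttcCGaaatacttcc
Cox8b, chr7:140900447-140900696, minus strand: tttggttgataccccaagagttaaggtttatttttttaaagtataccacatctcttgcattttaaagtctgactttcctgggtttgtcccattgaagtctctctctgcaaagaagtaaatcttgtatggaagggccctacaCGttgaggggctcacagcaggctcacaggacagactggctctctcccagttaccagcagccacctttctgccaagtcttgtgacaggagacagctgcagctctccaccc
These windows held 14 CG dinucleotides in Cox7a2 and 4 in Cox7a1, and 11 in Cox8a and 1 in Cox8b. The observed CG count over that given by the C and G content was 0.751 and 0.244 in the first family and 0.676 and 0.0726 in the second. In the Cox7b family the closed Cox7b2 had 9 CG and a ratio of 0.567, and the open Cox7b had 5 and 0.431. In the remaining families with windows, Cox6b1 had 14 and Cox6b2 had 8, Cox6a1 had 26 and Ndufa4 had 10. Over 77 windows of 72 members that are not restricted the median was 15 CG, beside 10 over 20562 windows of all protein-coding genes.

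In complex V, the rotary ATP synthase, all 17 genes were open in both libraries. The highest mean percentiles were those of Atp5mpl and Atp5s. Atp5s, which encodes an associated factor, had 24.3 in replicate 1 and 8.71 in replicate 2. Atp5mpl, a small membrane-sector protein, had 22.7 and 10.4. Atp5l, subunit g of the membrane sector, was lowest by mean percentile with 4.11 and 3.47, at the 39.3rd and 49.8th percentiles. The 5 genes of the catalytic F1 head ran from the 62.7th to the 90.2nd percentile in replicate 1.

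Subunit c forms the rotor ring and is encoded by 3 genes whose mature proteins are the same. Atp5g1 had 17.3 and 8.49, Atp5g2 had 14.8 and 7.04, and Atp5g3 had 10.0 and 3.71. The order was the same in both libraries. Atp5g1 differed from the others in the form of its accessible DNA, with peaks of 460 and 400 bp that held 10 and 11 footprints, centred at -260 and -230 bp from the nearest TSS. The Atp5g2 peaks were 200 and 240 bp wide with 6 and 8 footprints, and those of Atp5g3 200 and 220 bp wide with 6 in each. Atp5g2 was the subunit c gene with NRF1 letters in a footprint of both libraries, printed above.

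The 3 X-linked members, Ndufa1, Ndufb11 and Cox7b, all lay below the median gene. Their replicate 1 percentiles were 48.8, 40.1 and 35.3, and those of replicate 2 were 37.7, 37.4 and 41.2. The mice were male and carry 1 X chromosome. Over all X-linked protein-coding genes with a promoter peak the medians were 32.8 and 28.8, so the 3 members lay above these medians in both libraries. Autosomal members had medians of 75.5 and 73.3, beside 50.8 and 51.1 for autosomal genes.

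The libraries differed by a nearly common factor at these promoters. Over the 87 members, the median log2 ratio of replicate 1 signal to replicate 2 signal was 1.29 (SD 0.37 over members). Over all genes it was 1.28 (SD 0.41). The scales of both libraries are not known to be the same, so only departures from this median are of interest. The highest ratios were 1.98 for Ndufv2, 1.88 for Cox7a2 and 1.83 for Ndufa9. Ndufv2, a core iron-sulfur subunit of complex I, had 16.7 in replicate 1 and 4.25 in replicate 2. Ndufa9, an accessory subunit at the ubiquinone site, had 14.1 and 3.98. The lowest ratios were 0.24 for Atp5l, 0.29 for Ndufaf8 and 0.33 for Cox7b. Some of these ratios set peaks of unlike extent beside each other. Atp5l had 2 promoter peaks in replicate 1, of 4.11 and 3.91, that both overlapped its 1 peak of 380 bp in replicate 2. The Ndufv2 peaks were centred at -32 and -112 bp from the nearest TSS. Neither library was repeated, so these departures have no replicate check.

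Every member promoter with a peak in both libraries held at least 1 footprint in both, 87 of 87 (100%, 95.8 to 100), beside 97.0% of all genes with a peak in both. The median was 5 footprints per strongest member peak in each library and 4 over all genes. The difference was not seen at like signal. In each band of 20 percentiles above the 40th, the median over all genes was 5 and member medians were 4 to 5. Atp5g1 had the most, 10 and 11. Atp5l had 6 and 10, and Cox7a2l and Ndufa6, an accessory subunit of complex I, each had 5 and 11. In those last 3 genes the replicate 2 peak was the wider, at 380, 440 and 340 bp against 200, 160 and 280 bp.

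Footprint density was close to that of other promoters of like signal above the 40th percentile. Between the 20th and 40th percentiles it was lower when pooled over peak bases, which weighs wide peaks most. There 4 members of replicate 1 had 1.27 footprints per 100 bp of peak against 2.03 over all genes. In replicate 2, 3 members had 1.05 against 1.84. Ndufa13 was among them in both, with 1 footprint in 800 bp and 2 in 500 bp. In replicate 1 the others were Atp5l with 6 in 200 bp, Cox7b with 6 in 160 bp and Ndufc2 with 4 in 180 bp. In replicate 2 they were Ndufa1 with 4 in 160 bp and Ndufb11 with 3 in 200 bp. In the 60th to 80th percentile of replicate 1 signal, 36 members had 2.46 per 100 bp, and all genes had 2.37. Above the 80th percentile, 30 members had 2.36 and all genes 2.34. Of the 403 footprints in member peaks of replicate 1, 346 (85.9%, 82.1 to 89.1) overlapped a footprint of replicate 2, beside 71.4% over all genes. This difference was smaller at like signal. Above the 80th percentile the shares were 93.7% and 91.1%, and in the 60th to 80th percentile 83.3% and 85.7%. From the 40th to the 60th they were 84.9% and 77.9%, and from the 20th to the 40th 58.8% and 53.6%. Of the 445 member footprints of replicate 2, 401 (90.1%) overlapped a footprint of replicate 1, beside 83.0% over all genes. From the 20th percentile up, its bands gave 66.7% and 77.4%, 88.3% and 86.6%, 91.3% and 89.3%, and 91.7% and 92.6%.

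Member peaks sat close to the TSS, and many were shared with a neighbouring gene on the other strand. The centre of the strongest replicate 1 peak lay within 100 bp of a TSS in 81 of 88 members (92.0%, 84.3 to 96.7), beside 69.1% of all genes with a peak. A TSS of another protein-coding gene on the opposite strand lay within 500 bp of that peak in 34 of 88 members (38.6%, 28.4 to 49.6), beside 15.1% of all genes. Several of these neighbours also act in mitochondria or translation. Ndufb5 shared its peak with Mrpl47 and Ndufs6 with Mrpl36, both mitochondrial ribosomal protein genes. Sdhd shared its peak with Timm8b, a mitochondrial import factor gene, Ndufa7 with the ribosomal protein gene Rps28, and Ndufs1 with the translation factor gene Eef1b2. Atp5j, the F6 coupling factor, shared its peak with Gabpa, the DNA-binding subunit of GABP, so that both genes have the same values, 11.7 in replicate 1 and 3.32 in replicate 2. These neighbours were chosen after their identity was seen.

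Members had high medians with and without such a neighbour. The 34 members with such a neighbour had a median percentile of 76.3 in replicate 1 and the 54 without one 72.2. Over all genes the corresponding medians were 72.1 and 44.7. In replicate 2 the member medians were 74.8 and 69.0, beside 70.1 and 45.2 over all genes. Members without an opposite-strand neighbour thus lay further above other genes of the same arrangement than members with one. The members' peaks had a median GC content of 61.9% and a CG ratio of 0.901 in replicate 1, beside 65.7% and 0.823 over all genes.

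Letters of NRF1 and YY1 were more frequent in member promoters than in promoters at large, and those of SP and KLF factors less so in the peaks. For this, 10 consensus strings were searched on both strands in the strongest replicate 1 peaks, counting each peak once. NRF1 letters were in 12 of 88 member peaks (13.6%, 7.25 to 22.6), beside 5.08% of all 13627 peaks. YY1 letters were in 16 (18.2%, 10.8 to 27.8), beside 3.71%. ETS letters were in 8 (9.09%, 4.01 to 17.1), beside 6.69%. The SP and KLF letters GGGCGGG were in 25 (28.4%, 19.3 to 39.0), beside 46.5%. In RefSeq windows of 300 bases, of which 81 matched 76 members, this last difference was not seen, with 35.8% of member windows and 34.8% of all windows. There NRF1 letters were in 14.8% and 3.63%, and YY1 letters in 13.6% and 3.08%. A match describes letters and says nothing of binding.

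**Figure D4:**
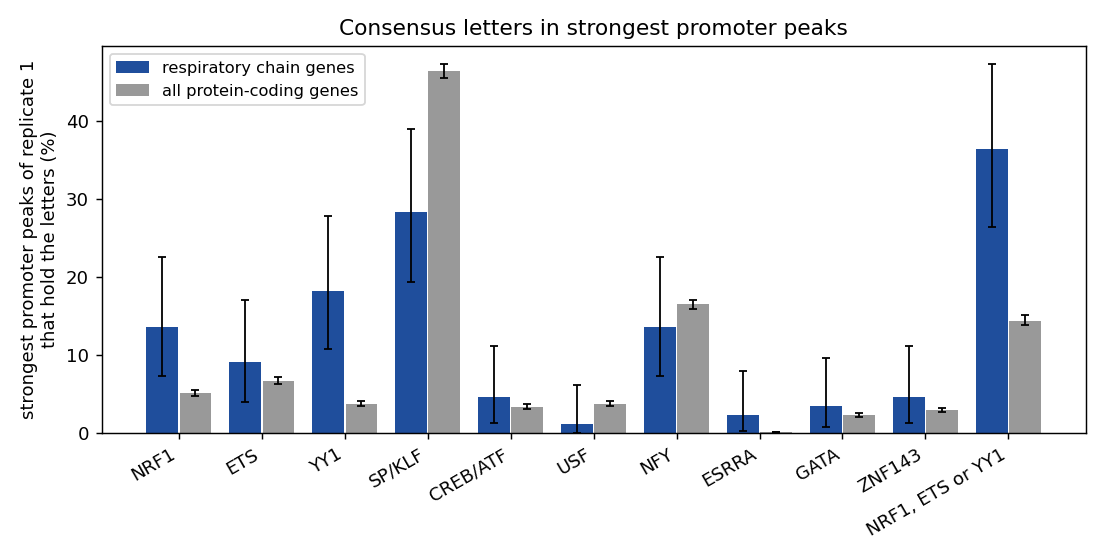
Share of strongest replicate 1 promoter peaks that hold each consensus (y axis, percent), for respiratory chain genes in blue and all protein-coding genes in grey, with exact 95% intervals as error bars. The YY1 bars stand at 18.2% and 3.71% and the NRF1 bars at 13.6% and 5.08%, while the SP/KLF bars stand in the opposite order at 28.4% and 46.5%.

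For the remaining strings other than ESRRA, the interval of the member share held the share over all genes. The NFY letters CCAATC were in 12 member peaks (13.6%), beside 16.5%. The CREB letters TGACGTCA were in 4 (4.55%), beside 3.34%, the ZNF143 letters ACTACAA in 4 (4.55%), beside 2.91%, and the GATA letters AGATAA in 3 (3.41%), beside 2.25%. The USF letters GTCACGTG were in 1 (1.14%), beside 3.74%. The ESRRA letters TCAAGGTCA were in 2, Sdhd and Atp5g3 (2.27%, 0.276 to 7.97), beside 0.0954%, and neither lay in a footprint. In the RefSeq windows ZNF143 letters were in 12.3% of member windows (6.08 to 21.5), beside 3.67%, a larger difference than in the peaks.

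NRF1 letters lay in footprints more regularly than YY1 letters did. Over the strongest peak of either library, 13 members held NRF1 letters and in 12 of them the letters lay within a footprint, extended by 5 bp, in both libraries (92.3%, 64.0 to 99.8). Over all genes this share was 86.0%. The exception was Atp5k, subunit e of complex V. For YY1 it was 5 of 18 members (27.8%, 9.69 to 53.5), among them Atp5o, Ndufs4, Sdhc and Uqcrh, beside 40.4% of all genes with the letters. For ETS it was 3 of 8 (37.5%, 8.52 to 75.5), namely Atp5a1, Cox8a and Ndufs1, beside 51.8%. For SP and KLF it was 24 of 28 (85.7%, 67.3 to 96.0), beside 74.6%. Each of these member shares had an interval that held the share over all genes. Among the footprints themselves, NRF1 letters were in 2.98% of the 403 in replicate 1 and 2.92% of the 445 in replicate 2, beside 1.11% and 1.17% over all genes. YY1 letters were in 2.48% and 1.80%, beside 0.504% and 0.511%.

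The YY1 letters had a preferred place and strand. In replicate 1 peaks, 12 of the 17 matches in members lay on the gene's strand and between 10 bp upstream and 50 bp downstream of a TSS, as in Sdhc above. Such a match was present in 12 of 88 members (13.6%) and in 1.83% of all genes with a peak. Over all genes, 272 of 607 YY1 matches had this place and strand, so the placement itself was shared with other promoters. NRF1 letters had no such strand, with 9 of 20 matches on the gene's strand, beside 51.8% over all genes. The string overlaps its own reverse complement in several promoters, which then count on both strands. The 7 ZNF143 matches over both libraries were all on the gene's strand. Only 4 of them were in replicate 1 peaks, where the share over all genes was 57%. The ETS matches were on it in 3 of 9 cases, beside 56% over all genes.

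**Figure D5:**
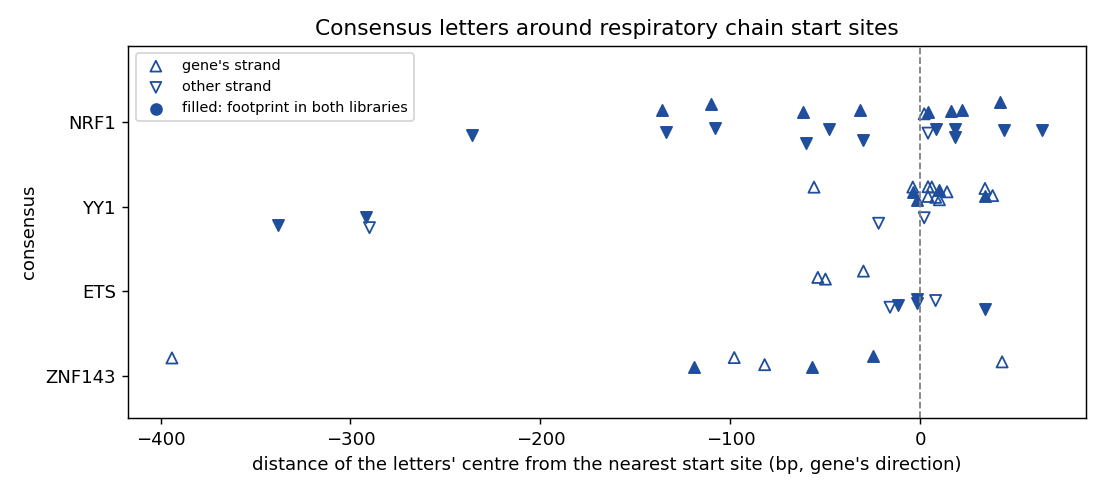
Distance of consensus letters from the nearest start site (x axis, bp in the gene's direction) for 4 factors, with letters on the gene's strand as upward triangles, letters on the other strand as downward triangles and letters in a footprint of both libraries filled. YY1 letters gather just downstream of the start on the gene's strand and are mostly unfilled, whereas NRF1 letters are spread over both strands and are filled in 12 of 13 genes.

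Genes of the same pathway outside the naming rule were also mostly open. Of 39 other assembly factors and electron carriers, 38 had a promoter peak in both libraries, with median percentiles of 70.1 and 73.5. Sdhaf1, an assembly factor of complex II, had none. Cycs, which encodes cytochrome c, had 41.4 in replicate 1 and 13.8 in replicate 2, the 99.2nd and 98.1st percentiles, and so exceeded every member in replicate 1. All 17 regulators of respiratory chain and mitochondrial DNA genes on the list were open in both. Esrra had 49.2 and 15.0, and Yy1 had 30.7 and 8.54. Nrf1 had 12.3 and 4.55, and Ppargc1a, the coactivator known from heat-producing and oxidative tissues, had 0.356 and 0.276, at the 6.92nd and 4.63rd percentiles.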

How the data were processed

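DNase-seq peaks, footprints and false discovery rates of 2 spleen libraries (replicates 1 and 2) were used. Per the deposited README, the files derive from each library's own filtered alignment on mm10, not pooled. No source used here names the aligner or the callers. The peak signal, as deposited by the authors, is a density with an unknown scale constant, so levels were ranked inside each library and set across libraries as ratios. The false discovery rates, a kind of q-value deposited by the authors, list only stretches below 0.05. The value column of the footprints was not used.

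TSSs came from GENCODE M21, and genes were merged by symbol. Peaks overlapped a 500 bp promoter window by at least 1 bp, and footprints overlapped the strongest peak likewise. Intervals were exact binomial (Clopper-Pearson, SciPy 1.17.1). Letters were matched exactly on both strands of the mm10 reference, read with pysam 0.24.0, in footprints extended by 5 bp. Peak copies were searched with BLAST 2.17.0. Code was tested on simulated data.

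The members and lists were chosen with earlier results of these data known. Named genes were those without a promoter peak in 1 or both libraries, the 2 highest and 2 lowest of each class by mean percentile, all isoform pairs and subunit c genes, the 3 highest and 3 lowest log2 ratios and the 3 with most footprints, with ties. Printed footprints were those of such genes. Not every gene this rule picked is reported here. Genes named by a shared peak, a consensus, a footprint density or the X chromosome fall outside this rule. No test was made, since 1 group gives no contrast. Alternatives were the shorter peak list, other windows, protein-coding TSSs, summed peaks, contained footprints, other extensions and single libraries.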

Additional observations from a re-analysis of the deposited data

How the results depend on the processing

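Of 85 values recomputed under 10 alternatives, 75 moved by no more than the spread between libraries (1.5 times for counts) and 10 moved further. Reversal of a result was not assessed. For values averaged over both libraries, those of single libraries lie within that spread by construction. The mean of both libraries' median percentile, 74.0 as reported, was 71.8 with the shorter peak list and 70.6 with summed promoter peaks. The median of 5 footprints became 4 when footprints had to lie wholly in the peak. NRF1, ETS or YY1 letters were in 6.41% of member footprints (mean of both libraries), 5.09% without extension and 8.19% with 10 bp. The cause was not tested, except that a wider extension holds more letters by construction. Leaving out each library gave 87 to 88 open members and 72.9 to 75.1 for the median percentile. The restricted isoform was weaker in 7 pairs in both libraries, in 8 in replicate 1 alone and in 7 in replicate 2 alone. No paired analysis was possible because there is a single group. Depth is unknown, weak promoters may be missed in replicate 2, and the libraries give no contrast between tissues or ages.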
